A study of Mus musculus with 2 samples.

Results

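Imprinted growth genes, which are read mainly or only from the copy inherited from one parent, were examined in the subventricular zone (SVZ) and the cortex of the mouse brain at embryonic day 16.5. The group held 10 genes of the 24411 listed per library, taken by name: *Igf2*, *H19*, *Dlk1*, *Peg3*, *Peg10*, *Plagl1*, *Mest*, *Ndn*, *Grb10* and *Nnat*. All 10 were listed, and all 10 passed a minimum mean of 1 CPM (the usual depth-scaled unit, the reads of a gene as parts in 1000000 of the gene-assigned reads of its library). Both areas were cut by laser capture microdissection (LCM) from stained fresh-frozen sections, with 1 bulk RNA-seq library for the SVZ and 1 for the cortex. The labels name no strain, genotype or treatment, and they do not say how many embryos or sections went into a library.

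With 1 library per area no difference below has a replicate check and no test between the areas was possible. The SVZ library held 51435667 gene-assigned reads and the cortex library 22050693, so that 1 read was worth 0.0194 CPM and 0.0453 CPM. Each ratio has a 95% interval from its reads by the exact method of Clopper and Pearson. These intervals cover counting error only and treat each read as independent. PCR copies without molecular identifiers are not independent molecules, so the intervals can be too narrow. Over the 12738 genes whose mean reached 1 CPM, 86.8% had an interval that left out equal CPM, so such an interval says little beyond these libraries. In dissected tissue, fewer cells that express a gene and less of its RNA per cell cannot be told apart. The reads carry no allele, so imprinting itself was not measured.

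Genomic imprinting marks a gene by parental origin through DNA methylation at a control region, and many of the marked genes set the pace of fetal growth. *Igf2* encodes a fetal growth factor that signals through the receptors *Igf1r* and *Insr*, and *Grb10* encodes an adaptor that binds those receptors and restrains them. In the fetal brain the germinal zone beside the ventricle holds dividing progenitors, and the cortex holds the neurons they produce.

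The sequences at the starts of these genes are shown first, because the methylated control region of several of them lies at or near a promoter. RefSeq windows from 250 bases before to 50 bases after a start (build GRCm38.p6) were matched for 8 of the 10 genes, in 14 windows. *H19* and *Peg10* had no entry. The motif searched was TGCCGC on both strands (GCGGCA on the other), the letters bound in methylated form by ZFP57, a zinc finger protein that protects imprints after fertilization. It was found in 6 windows of 5 genes, *Igf2*, *Plagl1*, *Mest*, *Grb10* and *Nnat*, and in 11.6% of all 32851 promoter windows. Of the 6 windows, 2 are *Mest* windows that overlap almost whole. A match describes the letters and is not a binding site. The windows below belong to the 3 genes with the largest SVZ excess and to *Ndn*, the gene with more CPM in the cortex, and capitals mark the motif.

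Grb10, upstream start, chr11:12037371-12037670, minus strand: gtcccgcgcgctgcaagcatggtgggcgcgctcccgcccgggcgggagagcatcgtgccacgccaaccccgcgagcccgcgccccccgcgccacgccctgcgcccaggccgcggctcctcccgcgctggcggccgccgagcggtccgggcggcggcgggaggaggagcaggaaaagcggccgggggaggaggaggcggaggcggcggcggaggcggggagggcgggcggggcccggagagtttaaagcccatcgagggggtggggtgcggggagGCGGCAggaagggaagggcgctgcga
Grb10, downstream start, chr11:12027922-12028221, minus strand: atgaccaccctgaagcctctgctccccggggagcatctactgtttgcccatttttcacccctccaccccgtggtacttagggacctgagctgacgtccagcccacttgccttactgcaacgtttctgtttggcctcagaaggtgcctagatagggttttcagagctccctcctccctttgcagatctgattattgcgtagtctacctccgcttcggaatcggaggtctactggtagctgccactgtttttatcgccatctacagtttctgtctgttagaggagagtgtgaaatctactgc
Plagl1, chr10:13090582-13090881, plus strand: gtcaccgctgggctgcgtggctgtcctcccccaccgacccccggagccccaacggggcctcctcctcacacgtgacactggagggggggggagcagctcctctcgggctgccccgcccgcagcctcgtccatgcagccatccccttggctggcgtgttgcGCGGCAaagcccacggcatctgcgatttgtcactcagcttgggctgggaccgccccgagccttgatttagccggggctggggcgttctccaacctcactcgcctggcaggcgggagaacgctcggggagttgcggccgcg
Mest, second listed start, chr6:30737800-30738099, plus strand: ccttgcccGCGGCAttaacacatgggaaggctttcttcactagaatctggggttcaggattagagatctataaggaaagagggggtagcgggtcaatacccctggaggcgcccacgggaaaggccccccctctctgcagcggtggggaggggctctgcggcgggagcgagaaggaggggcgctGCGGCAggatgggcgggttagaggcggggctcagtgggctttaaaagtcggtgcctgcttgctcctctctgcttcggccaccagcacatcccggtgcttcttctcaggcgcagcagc
Ndn, chr7:62348027-62348326, plus strand: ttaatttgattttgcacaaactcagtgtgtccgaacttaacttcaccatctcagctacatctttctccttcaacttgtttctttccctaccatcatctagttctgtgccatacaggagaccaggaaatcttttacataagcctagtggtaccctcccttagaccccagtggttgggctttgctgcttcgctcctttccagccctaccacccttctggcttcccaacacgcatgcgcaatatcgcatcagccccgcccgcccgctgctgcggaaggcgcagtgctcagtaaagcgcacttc

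The upstream *Grb10* window held 45 CpG dinucleotides, a number that 1.93% of all windows reached, and 1 motif. The downstream *Grb10* window held 9 CpG and no motif. The *Plagl1* window held 26 CpG and 1 motif, the *Mest* window 17 CpG and 2 motifs, and the *Ndn* window 11 CpG and no motif. All promoter windows had a median of 7 CpG, and 12 of the 14 windows of these genes lay above it. The CpG count and the motif overlap, since each motif holds 1 CpG.

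The 10 genes leaned to the SVZ in these libraries. They were chosen with earlier results of these data known, so the shares below only describe this list. The CPM was higher in the SVZ library for 9 genes and in the cortex library for 1, *Ndn*. At least 2-fold higher CPM in the SVZ was seen for 5 of the 10 (*Grb10*, *Plagl1*, *Mest*, *H19* and *Peg10*), where 20.0% of all genes passed this fold. At least 2-fold higher CPM in the cortex was seen for 0 of the 10, where 15.6% of all genes passed. With upper-quartile scaling, TMM, DESeq2 size factors or totals without the 10 most counted genes, *Ndn* also passed and the split of 5 to 0 became 5 to 1. Under the same 4 scalings *Peg3* changed side, and the split of 9 to 1 by direction became 8 to 2. The whole counting interval lay past 2-fold in the SVZ for 4 genes (16.1% of all genes) and the ratio past 4-fold for 3 genes (10.2% of all genes). The median log2 ratio (SVZ over cortex, in CPM) was 1.15 over the 10 genes and 0.11 over all genes tested.

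**Figure D1:**
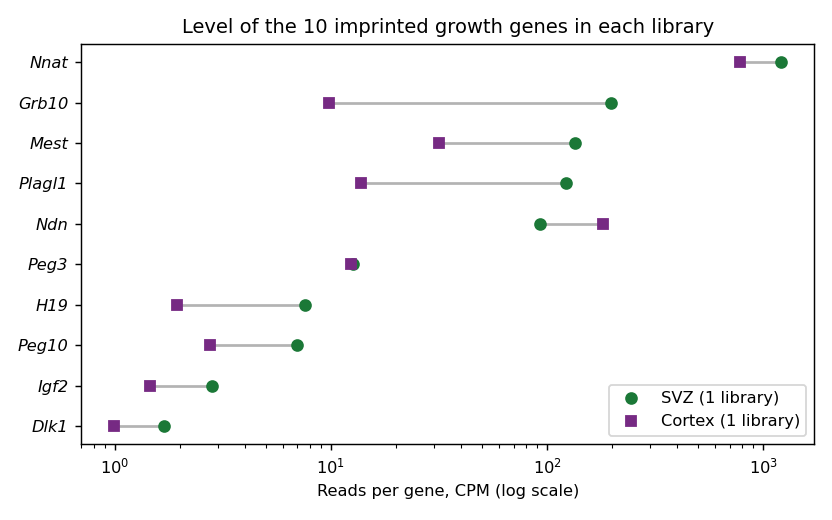
CPM of each gene on a log scale (horizontal axis) in the single SVZ library (circles) and the single cortex library (squares), genes ordered by SVZ level. *Nnat* sits highest in both libraries at 1210 and 780 CPM, and *Ndn* is the gene whose square lies to the right of its circle.

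*Grb10* showed the widest gap. SVZ reads numbered 10144 and cortex reads 216, or 197 and 9.80 CPM. The SVZ level was thus 20.1-fold the cortex level (interval 17.6 to 23.1), a log2 ratio above that of 96.7% of the genes tested. Among all listed genes *Grb10* (GRCm38 chromosome 11, 11930508 to 12038683, minus strand) stood at place 1089 by CPM in the SVZ and at place 8627 in the cortex. In most fetal tissues *Grb10* is read from the maternal copy, and in neurons from the paternal copy, from a different start. The counts per gene do not separate these starts.

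The zinc finger genes went apart. *Plagl1* encodes a transcription factor, also called ZAC1, that slows the cell cycle and binds near other imprinted genes. It had 6326 SVZ reads and 305 cortex reads, 123 and 13.8 CPM, so the SVZ level was 8.89-fold the cortex level (7.93 to 10.0). *Peg3*, which encodes a large zinc finger protein, had 654 and 274 reads, 12.7 and 12.4 CPM. The interval of its log2 ratio (0.03) ran from -0.17 to 0.24, which leaves a difference not detectable at this depth, and the sign turned under the 4 other scalings (-0.07 with upper-quartile scaling). *Plagl1* lies on chromosome 10 (13060504 to 13131694, plus strand) and *Peg3* on chromosome 7 (6703892 to 6730431, minus strand).

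*Mest* and *Nnat* are both read from the paternal copy and encode proteins of internal membranes. *Mest*, whose product has the fold of hydrolase enzymes, had 6935 SVZ reads and 701 cortex reads, 135 and 31.8 CPM. Its SVZ level was 4.24-fold the cortex level (3.92 to 4.59). *Nnat* encodes neuronatin, a small membrane protein of developing neurons, and was the most abundant of the 10 with 62222 and 17200 reads. Its 1210 and 780 CPM put it at place 54 of all listed genes in the SVZ and place 137 in the cortex. The *Nnat* ratio was modest, 1.55-fold (1.52 to 1.58), but its narrow interval comes from its depth. *Nnat* (chromosome 2, 157560078 to 157562522, plus strand) alone held 67.6% of the reads of the 10 genes in the SVZ and 75.2% in the cortex.

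*Ndn* encodes necdin, a protein of the MAGE family that holds postmitotic neurons out of the cell cycle. It had 4791 SVZ reads and 4015 cortex reads, 93.1 and 182 CPM, so the cortex level was 1.95-fold the SVZ level. Its log2 ratio of -0.97 (-1.03 to -0.91) lay just inside 2-fold, and it lay past 2-fold under the 4 other scalings (-1.06 with TMM, -1.07 with upper-quartile scaling). On the SVZ side, *Peg10* at 1.34 was the lowest past 2-fold and *Igf2* at 0.96 the highest short of it. A log2 ratio lower than that of *Ndn* (chromosome 7, 62346569 to 62350262, plus strand) was found for 16.2% of genes.

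The remaining 4 genes stayed under 10 CPM in both libraries. *H19*, a maternally read long noncoding RNA, had 390 and 43 reads, 7.58 and 1.95 CPM. Its partner *Igf2*, read from the paternal copy in most tissues, had 145 and 32 reads, 2.82 and 1.45 CPM. Both leaned to the SVZ, *H19* by 3.89-fold (2.83 to 5.46) and *Igf2* by 1.94-fold (1.32 to 2.95), with overlapping intervals. *Peg10*, a gene derived from a retrotransposon, had 360 and 61 reads, 7.00 and 2.77 CPM, a 2.53-fold excess in the SVZ (1.92 to 3.38). *Dlk1*, which encodes a membrane protein related to Notch ligands, had 87 and 22 reads, 1.69 and 0.998 CPM. The *Dlk1* excess of 1.70-fold had an interval of 1.05 to 2.84, so its size is poorly fixed. *Igf2* (142650766 to 142666816) and *H19* (142575529 to 142578143) share the minus strand of chromosome 7, *Peg10* lies on chromosome 6 (4747306 to 4760517) and *Dlk1* on chromosome 12 (109452823 to 109463336).

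**Figure D2:**
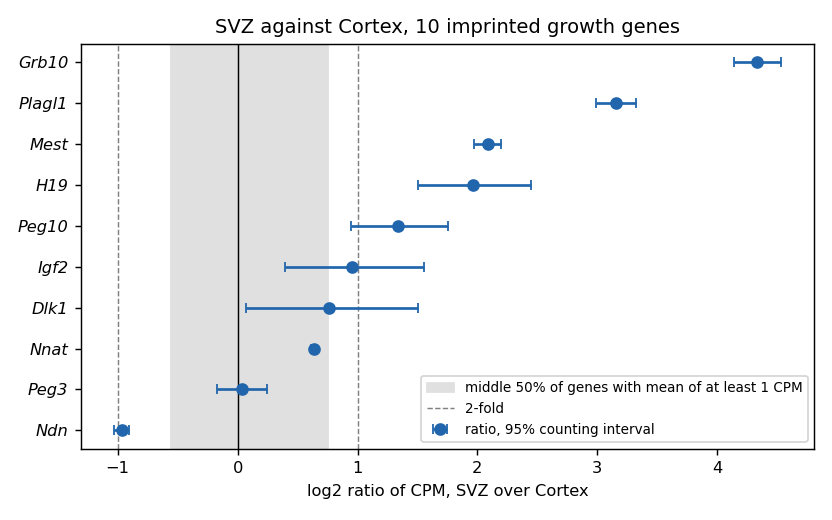
Log2 ratio of CPM, SVZ over cortex (horizontal axis) for each gene, with bars for the 95% counting interval, dashed lines at 2-fold and a grey band for the middle 50% of the 12738 genes tested. *Grb10*, *Plagl1* and *Mest* stand at 4.33, 3.15 and 2.08, and *Ndn* at -0.97.

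In the order of ratios from *Grb10* down to *Ndn*, *Grb10* and *Plagl1* had intervals apart from each other and from *Mest*. From *Mest* through *H19*, *Peg10*, *Igf2*, *Dlk1* and *Nnat* each interval overlapped the next. To compare levels between genes, reads were divided by the exon length of each gene (GENCODE M21). In CPM per kilobase, the SVZ levels ran from *Nnat* (661) through *Mest* (34.2), *Ndn* (25.2), *Grb10* (21.7), *Plagl1* (15.7), *H19* (3.08), *Peg10* (1.05), *Peg3* (0.954) and *Igf2* (0.493) to *Dlk1* (0.299). The cortex levels in CPM per kilobase ran from *Nnat* (426) through *Ndn* (49.3), *Mest* (8.06), *Plagl1* (1.77), *Grb10* (1.08), *Peg3* (0.933), *H19* (0.793), *Peg10* (0.415) and *Igf2* (0.254) to *Dlk1* (0.176). Counting intervals overlapped between *Peg10* and *Peg3* in the SVZ. In the cortex they overlapped between *Grb10* and *Peg3*, *Peg3* and *H19*, *Peg10* and *Igf2*, and *Igf2* and *Dlk1*. With the longest transcript as length, *Grb10* passed *Ndn* and *Peg3* passed *Peg10* in the SVZ, and the cortex order did not change.

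The count of *Mest* left out 53.2% of the reads that its stranded columns hold in the SVZ and 52.7% in the cortex. The files give 1 column that ignores strand and 2 that count each strand apart, and a read that lies in genes on both strands enters only the latter. The 2 stranded columns of *Mest* summed to 14829 reads in the SVZ and 1483 in the cortex, 7894 and 782 more than the unstranded column. *Copg2*, a coat protein gene on the opposite strand, gained 7895 and 782 reads in the same way. Exons of both genes cover chromosome 6 from 30747554 to 30748465, a stretch of 912 bases. The shared reads had a log2 ratio of 2.11 (2.01 to 2.22), beside 2.08 (1.97 to 2.20) for reads of *Mest* alone and -0.15 (-0.23 to -0.06) for reads of *Copg2* alone. With the shared reads included, *Copg2* had a log2 ratio of 0.97 (0.91 to 1.04) and *Mest* of 2.10. From which gene the shared reads came was not tested, since the stranded columns give them to both.

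*Peg3* had the same kind of loss. Its stranded columns held 415 more reads in the SVZ and 128 more in the cortex, and *Peg3os*, an antisense transcript of 865 bases inside *Peg3* (chromosome 7, 6706760 to 6707624), gained 415 and 128. The unstranded count of *Peg3os* was 0 in both libraries. With these reads the *Peg3* log2 ratio was 0.19 (0.02 to 0.35). For the other 8 genes the stranded columns summed to the unstranded count in both libraries, within 1 read.

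**Figure D3:**
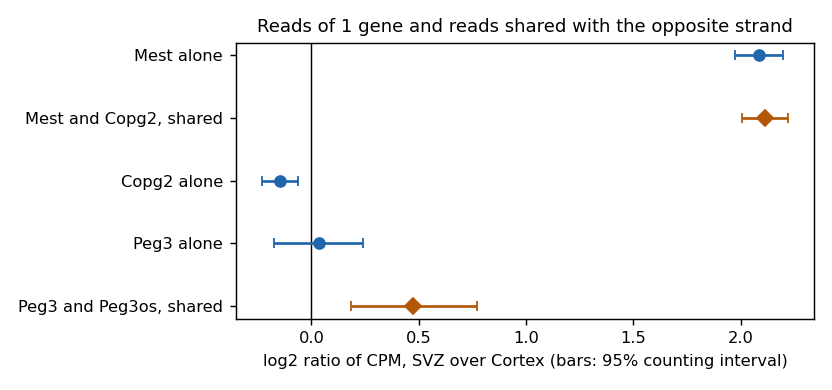
Log2 ratio of CPM, SVZ over cortex (horizontal axis) for reads counted to 1 gene alone (circles) and for reads shared with a gene on the opposite strand (diamonds), with 95% counting intervals. The shared *Mest* and *Copg2* reads sit at 2.11, next to *Mest* alone at 2.08 and away from *Copg2* alone at -0.15.

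*H19* has an overlap that no column resolves, since the hairpin of the microRNA it hosts, miR-675, lies on the same strand inside an exon (chromosome 7, 142577064 to 142577147). A read that touches those 84 bases overlaps both genes and enters neither count, and the hairpin gene was listed at 0 reads in both libraries. *Mest* hosts miR-335 in an intron (chromosome 6, 30741299 to 30741396), which takes no exon reads from it. That hairpin had 2 reads in each library. The mature sequences (RefSeq) that these genes give rise to are shown with the seed, bases 2 to 8, in capitals. No seed is shared among them.

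miR-675-5p, from H19: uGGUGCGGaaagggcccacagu
miR-675-3p, from H19: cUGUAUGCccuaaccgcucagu
miR-335-5p, from Mest: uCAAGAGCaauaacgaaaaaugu
miR-335-3p, from Mest: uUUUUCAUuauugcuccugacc

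Imprinted genes often lie in clusters, so other genes described as imprinted, in the same clusters and elsewhere, were read beside the 10. A list of 46 such genes, some imprinted only in certain tissues, was used. Whether each is imprinted in these areas was not measured. The list too was chosen with earlier results of these data known. Of the 46 genes, 45 were listed and 32 reached a mean of 1 CPM. Of these 32, 24 had the higher CPM in the cortex and 8 in the SVZ. At least 2-fold higher CPM was found for 10 in the cortex and for 2 in the SVZ, 31.3% and 6.25% of the list, against 15.6% and 20.0% of all genes. The median log2 ratio of the list was -0.35.

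At the *Dlk1* locus the maternally read noncoding RNAs were all higher in the cortex library. *Meg3* had 3314 SVZ reads and 10206 cortex reads, a cortex level 7.18-fold the SVZ level. *Rian* was 5.36-fold and *Mirg* 4.27-fold higher in the cortex. *Rtl1*, a paternally read gene there, had 3 and 9 reads, and its stranded columns held 0 and 38 more. *Dio3* had 0 in both. *Dlk1* itself lay on the other side, with its interval above 0. On distal chromosome 7, where *Igf2* and *H19* leaned to the SVZ, *Cdkn1c*, a maternally read inhibitor of cyclin-dependent kinases, had 4283 and 8245 reads and was 4.49-fold higher in the cortex. *Kcnq1ot1*, the noncoding RNA of that domain, was 1.58-fold higher there. *Ins2* had 4 reads in the SVZ and 0 in the cortex, *Slc22a18* 5 and 1, and *Ascl2* and *Phlda2* were listed at 0 in both.

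The *Ndn* region of chromosome 7 was of 1 direction in the list. *Magel2*, *Snrpn*, *Mkrn3* and *Ube3a* had log2 ratios of -2.26, -0.62, -0.39 and -0.72, all with intervals below 0, as for *Ndn*. *Peg12*, another imprinted gene of the region, which was not in the list and was chosen after its values were seen, had 4688 SVZ reads and 234 cortex reads, an 8.59-fold excess in the SVZ (7.53 to 9.84). Around *Peg10*, *Sgce*, which shares its promoter region, had a log2 ratio of 0.35, *Asb4* of 0.89 and *Dlx5* of 0.82, while *Ppp1r9a* and *Casd1* had -0.59 and -0.12. *Calcr* had 4 SVZ reads and 0 cortex reads. *Usp29*, which starts beside *Peg3* on the other strand, was 3.62-fold higher in the cortex. The stranded columns of *Usp29* held 192 and 211 more reads, and with them its log2 ratio was -1.74 (-1.88 to -1.60). *Zim1*, also near *Peg3*, had 0 and 3 reads. *Klf14*, near *Mest*, had 0 in both. *Blcap*, the gene that holds *Nnat* in an intron, had a log2 ratio of -0.32 where *Nnat* had 0.63. *Ddc*, beside *Grb10*, had 99 and 16 reads and a 2.65-fold excess in the SVZ. It and *Commd1* (2.14-fold) were the listed genes past 2-fold towards the SVZ.

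**Figure D4:**
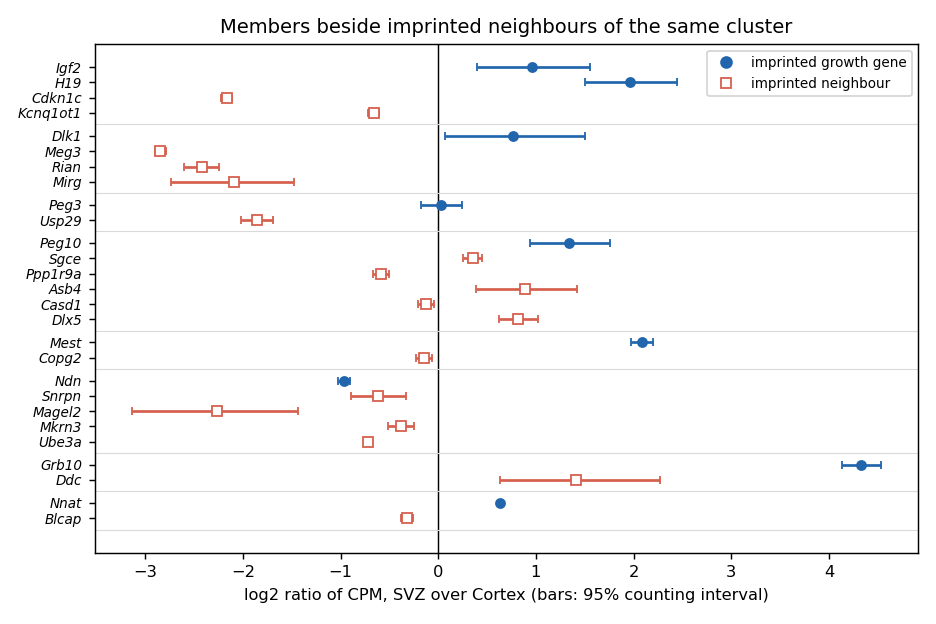
Log2 ratio of CPM, SVZ over cortex (horizontal axis, bars for 95% counting intervals). Circles are imprinted growth genes, and squares are listed neighbours of the same cluster whose mean reached 1 CPM. *Dlk1* stands at 0.76 above *Meg3* at -2.84, and *Ndn* and its 4 listed neighbours all lie left of 0.

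Elsewhere in the genome, *Inpp5f* had 491 SVZ CPM and 1599 cortex CPM and was 3.26-fold higher in the cortex. *Gnas*, which encodes the stimulatory G protein, had 1112 and 1119 CPM and a log2 ratio of -0.01 (-0.03 to 0.01). As for *Grb10*, the counts per gene do not separate the transcripts of *Inpp5f* or of *Gnas*. *Nap1l5* and *Peg13* were 4.48-fold and 2.42-fold higher in the cortex. *Rasgrf1*, a paternally read exchange factor of Ras, had 0 SVZ reads and 117 cortex reads. With the SVZ count set at a floor of 3 reads, its cortex level was 91.0-fold the SVZ level. The counting interval of that log2 ratio (-6.51) reached up to -6.19.

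The genes through which *Igf2* acts were taken as a second list, also chosen with earlier results of these data known. Of its 38 genes, 32 reached a mean of 1 CPM. None of the 3 receptors of *Igf2* came near 2-fold. *Igf1r*, the main receptor, had 167 SVZ CPM and 209 cortex CPM (log2 ratio -0.33), *Insr* 43.3 and 44.0 CPM, and *Igf2r*, the imprinted receptor that clears the ligand, 27.5 and 28.3 CPM. For *Insr* and *Igf2r* a difference was not detectable at this depth. The other ligand, *Igf1*, had 166 SVZ reads and 0 cortex reads. With the cortex count set at a floor of 3 reads, its SVZ level was 23.7-fold the cortex level. The lower end of the counting interval was 19.1-fold.

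The binding proteins, which hold the ligands in the extracellular space, went to opposite ends. *Igfbp5* had 5677 SVZ reads and 68 cortex reads, a 35.8-fold excess in the SVZ (log2 interval 4.82 to 5.53). *Igfbp3* had 60 and 2179 reads and was 84.7-fold higher in the cortex (log2 interval -6.80 to -6.03). *Igfbp4* was 2.42-fold higher in the SVZ, and *Igfbp2* had a log2 ratio of -0.25. The proteins that bind *Igf2* mRNA, *Igf2bp1*, *Igf2bp2* and *Igf2bp3*, had log2 ratios of -0.25, -0.05 and 0.05.

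Among the carriers of the signal, *Irs1*, the docking protein of the activated receptors, had 12834 and 1284 reads and was 4.29-fold higher in the SVZ, the same side as *Grb10*. *Foxo1*, a transcription factor held in check by the pathway, was 4.56-fold higher in the SVZ. *Pik3r1* (2.87-fold), *Grb2* (2.12-fold) and *Pik3r2* (2.01-fold) were higher in the cortex. *Gsk3b*, a kinase inhibited by the pathway, had 415 and 575 CPM, and *Rps6kb1* had 206 and 212 CPM. Over the list 5 genes were at least 2-fold higher in the SVZ and 5 in the cortex, each 15.6% of those tested, against 20.0% and 15.6% of all genes. The list's median log2 ratio was -0.23, with 9 genes on the SVZ side and 23 on the cortex side. That split became 7 to 25 under TMM, DESeq2 size factors and upper-quartile scaling.

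Markers of cell types were read beside these genes. The 10 apical progenitor markers summed to 6623 CPM in the SVZ and 143 in the cortex, the 6 intermediate progenitor markers to 989 and 51.2, and the 10 neuronal markers to 4111 and 11356. The progenitor sums were thus larger on the SVZ side, and the neuronal sum was larger on the cortex side. Whether the SVZ cut also took in other parts of the germinal zone was not tested. The 9 endothelial markers summed to 198 and 80.0 CPM, with 6 of them higher in the SVZ and 3 in the cortex. The 7 pericyte markers summed to 105 and 69.9 CPM. *Slco1c1* alone, also found in progenitors, gave 115 and 9.07 CPM of the endothelial sum. The 8 interneuron markers summed to 121 and 125 CPM but went opposite ways. Of the 7 that reached a mean of 1 CPM, 5 were higher in the SVZ and 2 in the cortex. *Dlx1* was 2.25-fold higher in the SVZ and *Sst* 2.78-fold higher in the cortex. The stranded columns of *Dlx1* held 1821 more reads in the SVZ and 419 more in the cortex. Its ratio and the interneuron sums leave these reads out, so which interneuron sum is larger is not fixed.

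*Igf2*, *H19* and *Dlk1* are known from meninges, vessels and choroid plexus as well, and their low levels call for those markers. The 8 choroid plexus markers summed to 250 CPM in the SVZ and 2.36 in the cortex, of which *Ttr* gave 240 and 0.726. *Kl* was at 0 in both libraries, and 4 of the 8 were at 0 in the cortex. The 8 meningeal markers summed to 7.02 and 7.21 CPM, with *Aldh1a2* at 0 in both and *Col1a1* at 0 and 2 reads. These meningeal markers went opposite ways, with *Ogn* at 159 and 1 reads (3.09 and 0.0454 CPM), *Col3a1* at 17 and 68 reads and *Lum* at 30 and 40 reads. The 9 microglial markers summed to 73.4 and 9.25 CPM, each at least 2-fold higher in the SVZ, and the 7 erythroid markers to 20.2 and 10.6 CPM, with 4 at 0 in both. The part of any of these cell types in the ratios of the 10 genes was not tested.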

How the data were processed

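Expression was measured in 2 libraries, 1 from the SVZ and 1 from the cortex. Per the study's methods, the authors made cDNA libraries with a low-input kit, removed adapters with cutadapt 4.1 and mapped read 1 to mm10 (Illumina iGenomes) with STAR 2.7.9a. The authors deposited the gene counts of STAR as they came, whole numbers without normalization, in 3 columns per library. Reads that map to several places, or overlap more than 1 gene, are left out, so genes with near copies can be undercounted. Duplicate removal is not given in the sources used here. A merged deposited table, with the authors' CPM and fold change, was not used.

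CPM was computed on the sum of the gene rows of the unstranded column. The main value was the log2 ratio of CPM, SVZ over cortex, without a pseudocount. Where a gene had 0 reads, the ratio was computed with that count set at a floor of 3 reads. Genes with at most 3 reads in both libraries got no ratio. As each area has 1 library, a gene was called by a ratio of at least 2-fold. The list of 10 genes and the other lists were chosen with earlier results of these data known. Named were the 10 genes, listed genes in the same cluster, past 2-fold or with the highest means, overlapping genes and markers. Receptors, some binding proteins and the mRNA-binding proteins of the insulin-like growth factor list were named by role. No gene was named for likeness of pattern, since each gene has 1 ratio. For the insulin-like growth factor list, 1 gene enters the counts but is not reported here by itself. Positions and exon lengths came from GENCODE M21 (GRCm38, equal to mm10). Alternatives were size factors of DESeq2 1.42.0, the TMM and upper-quartile methods of edgeR 4.0.16, the stranded columns, library totals that leave out the 10 genes counted most, a pseudocount of 1 CPM, other thresholds and no filter. The work used Python 3.11.15 with scipy 1.17.1, pandas 2.3.3, numpy 2.4.6 and, for plots, matplotlib 3.10.9, and R 4.3.3. The intervals were also run on simulated independent counts. Such counts cannot show how the intervals behave with PCR copies or between replicates.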

Additional observations from a re-analysis of the deposited data

Results flagged for a closer look

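The stranded columns held a signal outside the main counts for *Mest* and *Peg3*. For *Mest*, reads beyond the unstranded count numbered 7894 (SVZ) and 782 (cortex). For *Peg3* they numbered 415 and 128. Each number is above the 3 reads that a count of 0 allows. For *Mest* these reads were 53.2% and 52.7% of the stranded sum, and for *Peg3* 38.8% and 31.8%, in SVZ and cortex.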

How the results depend on the processing

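No paired analysis was possible because 1 library stands for each area, so that there was also no replicate to leave out. Of 80 ratios of the 10 genes recomputed under 8 other settings, 73 stayed inside the gene's counting interval, 7 (of *Nnat* and *Ndn*) left it, and 0 changed the sign of a gene whose interval left out 0. *Peg3* changed sign under 4 scalings. The count of 5 genes past 2-fold towards the SVZ became 6 with the first stranded column alone and 3 at 4-fold. The count of 0 in the cortex became 1 under TMM, DESeq2 size factors, upper-quartile scaling, totals without the 10 most counted genes and the first stranded column. For the imprinted list, the 2 genes past 2-fold in the SVZ became 1 with the second stranded column, with a pseudocount of 1 CPM and with the whole interval past 2-fold, 0 at 4-fold, and 4 with no filter. For the insulin-like growth factor list, the 5 genes in the cortex became 3 with the whole interval past 2-fold and 1 at 4-fold. Scaling moved the median of all genes by at most -0.099 (log2). Depth limits *Dlk1* and *Igf2* most, with 22 and 32 cortex reads.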

Other observations

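The reads of *Igf2* in the SVZ library were uneven between the strands. Of its 145 reads, 91 fell in the first stranded column, 62.8% (exact interval 54.3 to 70.6), where the whole library had 49.6%. In the cortex library the split was 16 to 16. For the other 9 genes, the share in the first stranded column lay between 47.2% (*Peg10*) and 52.9% (*Dlk1*) in the SVZ library. In the cortex library it lay between 44.2% (*H19*) and 54.5% (*Dlk1*). The *Igf2* interval takes no account of its choice among 10 genes or of PCR copies. *Igf2os*, the antisense gene of *Igf2*, was listed at 0 reads in both libraries. The ratio of *Igf2* was 1.28 (log2) from the first stranded column and 0.53 from the second.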
